A study of Mus musculus with 5 samples.

Results

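The genes described here encode the tubulins, the microtubule-associated proteins (MAPs) and their regulators, and the neurofilaments, which together form the axonal and dendritic cytoskeleton. They were listed by name with no filter on their values, though earlier results of these data were known. The list held 37 genes, and a probe was used where its gene symbol on the array, current or older, was one of them. The brightest probe over all mice was taken for each gene. A named probe was found for 31 of the 37, out of 17742 genes named on the array. No probe named Tubb3, Tuba1b, Stmn1, Ina, Dpysl2 or Dpysl3 was found, so these 6 were not analysed here. Several of them are standard neuronal markers. Without these 6, the lists below of beta tubulins, alpha tubulins, stathmins, neurofilaments with Ina, and collapsin response mediator proteins (CRMPs) are incomplete.

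RNA came from the striatum of 5 male mice of the FVB strain, 12 months old. Every mouse carried a Huntington's disease (HD) transgene that joins GFP to the human HTT exon 1, with 84 CAG repeats, behind a human ubiquitin promoter. The group HD_miR196a, 3 mice bred from this line and a miR-196a line, also expressed precursor miR-196a, a microRNA, under the same kind of promoter. The group HD, the other 2 mice, had the HD transgene alone. The labels describe the motor function of the first group as improved and that of the second as weak. A ubiquitin promoter is not specific to neurons, and no mouse without the HD transgene was analysed here, so the values compare HD mice with HD mice and not with healthy ones. Because whole tissue was measured, fewer cells of a type and less RNA per cell cannot be told apart.

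Microtubules are polymers of alpha and beta tubulin that serve as tracks for transport between the neuronal cell body and its processes. MAPs such as tau, Map1b and Map2 bind along them, end-binding proteins mark their growing ends, and stathmins bind free tubulin and promote disassembly. Neurofilaments are the intermediate filaments of neurons and set the calibre of large axons. Doublecortin, Gap43 and the CRMPs act in migrating or growing neurons, and some of them stay expressed in the adult brain. In HD, huntingtin has been linked to microtubule-based transport of vesicles.

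The agent that separated the groups is shown here by its mature sequence, with the seed (bases 2 to 8) in capitals. The sequence is that of the mouse gene from RefSeq on the build GRCm38.p6, encoded at chr11:96265187-96265208 and again at chr15:102973365-102973386, both on the plus strand. The labels do not give the sequence of the transgene.
mmu-miR-196a-5p: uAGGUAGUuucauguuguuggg
Its level was not analysed here, and no transcript of the genes below was searched for its seed.

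All values below are log2 of the deposited intensity after quantile normalization, so a difference of 1 is a doubling, and each difference is HD_miR196a minus HD. Levels are compared only within a probe, since probes differ in brightness for reasons other than transcript number. Deposited medians were 160.0 to 166.3 in HD_miR196a mice and 184.3 to 185.6 in HD mice, and normalization removes this gap. As a mark of background, 4 genes, Tubb6, Tuba8, Map1a and Mapre3, had a mean below 8.31, the 95th percentile of 543 probes of olfactory receptors, which striatal cells mostly do not express. The labelled tissue was checked on markers of striatal medium spiny neurons, 6 of 8 measured (Penk, Drd1, Ppp1r1b, Rgs9, Pde10a and Tac1). All 6 were above that mark. For HD_miR196a mice 1 to 3 the mean of these markers was 12.97, 13.01 and 12.86, above the 12.47 and 12.65 of HD mice 1 and 2. All but Tac1, which differed by 0.01, lay apart and higher in HD_miR196a mice, by 0.33 to 0.60, and 0 passed. The part of these markers in the results below was not tested. Markers of cortical projection neurons differed widely between mice of the same group. For HD_miR196a mice 1 to 3 their list mean over 7 of 8 genes was 8.41, 11.13 and 10.73, and for HD mice 1 and 2 it was 8.91 and 11.35, so mouse 1 of each group stood apart. The astrocyte markers, 5 of 5 measured, had list means of 12.90, 12.67 and 12.77 in HD_miR196a mice 1 to 3, against 12.90 and 12.94 in HD mice 1 and 2. Of these 5, 2 measured higher and 3 lower in HD_miR196a mice, and Aldoc and Gfap lay apart, both lower. The part of the astrocyte markers in the results below was not tested. Over all 5 mice the microglia markers, 4 of 5 measured, had list means of 10.87 to 11.05. Of these 4, 2 measured higher and 2 lower in HD_miR196a mice, and 0 passed. C1qa lay apart with a difference of -0.30 and Tmem119 with one of 0.32, in opposite directions.

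Across the cytoskeletal genes the 2 groups of mice were close. The median difference was -0.02 over the 31 genes, against 0.00 over the brightest probe of all 17742 genes, and single differences lay between -0.21 for Tuba8 and 0.30 for Nefm. None of the 31 passed the test, limma with Benjamini-Hochberg adjustment over all 26423 probes (smallest adjusted p = 0.979), where 0% of all probes passed. At an unadjusted p under 0.05, limma gave 0 of the 31, against 4.16% of all probes. Mean levels were lower in HD_miR196a mice for 20 of the 31, 64.5%, against 51.0% of all genes, and the count fell to 13 without HD mouse 2. Without any scaling of the arrays 29 of 31 were lower, where the median of all probes itself shifted by -0.20.

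The 95% intervals of the differences, each taken alone, show what these 5 mice could resolve. All 31 lay within a 2-fold change in either direction, against 84.9% of all genes and 95.3% of the 8662 with a mean above the olfactory receptor mark. Within a 1.5-fold change lay 24, 77.4%, against 61.5% of all genes and 76.9% of those above the mark. Map2, the main MAP of dendrites, had an interval from -0.29 to 0.18, and tau, encoded by Mapt, one from -0.23 to 0.30. The widest belonged to Tuba8, from -0.99 to 0.57. Values of the groups lay apart, with no overlap, for 4 of the 31 genes, 12.9%, against 20.3% of all probes: Tubb2b and Mapre2, higher in HD_miR196a mice, and Dcx and Gap43, lower in them. By direction, 9.96% of all probes were apart with HD_miR196a higher and 10.3% with HD_miR196a lower, and the 31 genes had 2 of each, shares no larger than the background.

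**Figure D1:**
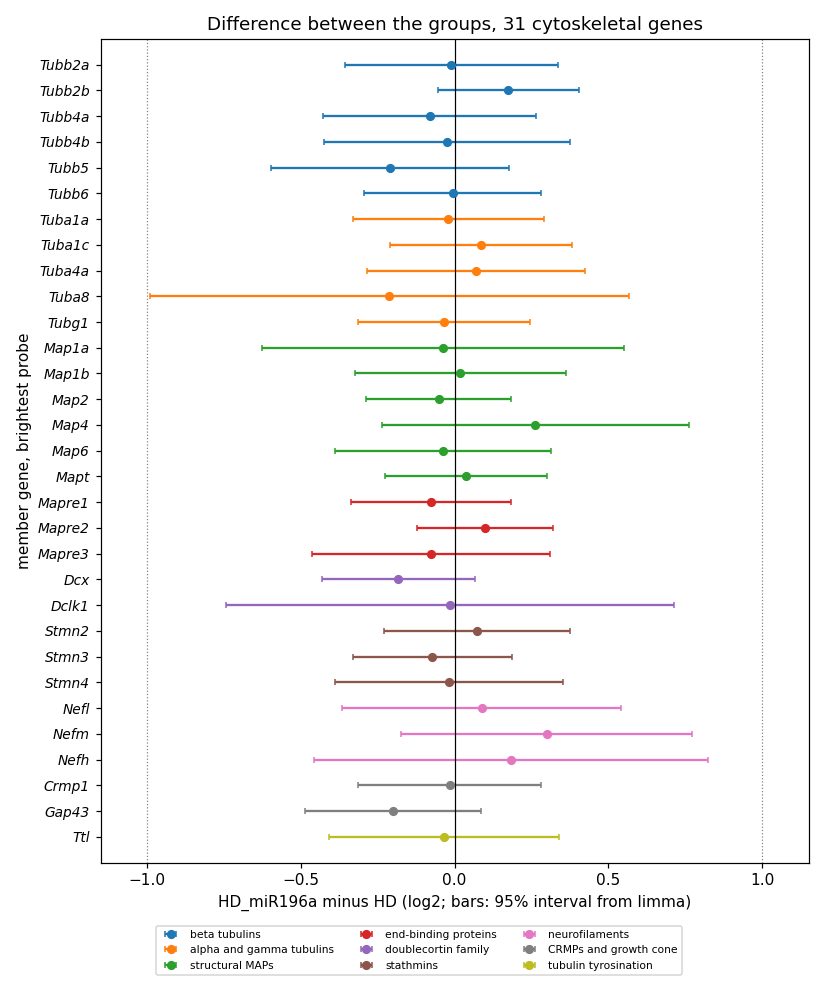
Difference between HD_miR196a and HD mice (horizontal axis, log2) for each of the 31 genes (vertical axis), coloured by role, with points for the limma estimate and bars for its 95% interval. Every bar crosses 0 and stays between the dotted lines at -1 and 1, a 2-fold change.

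Tubulins form the wall of the microtubule, and beta tubulin isotypes differ mainly in their acidic tails. Tubb2b, an isotype of developing and adult neurons, measured 11.44, 11.43 and 11.37 in HD_miR196a mice 1 to 3, against 11.25 and 11.23 in HD mice 1 and 2. All HD_miR196a mice were above both HD mice, with means of 11.41 ± 0.04 (SD, n = 3) and 11.24 ± 0.01 (SD, n = 2), a difference of 0.17 ± 0.09 (SE) and a limma adjusted p of 0.979. The direction of Tubb2b turned without scaling, where the difference was -0.07 and the median of all probes itself shifted by -0.20. Its close relative Tubb2a measured 14.50, 14.63 and 14.84 against 14.65 and 14.69, so the HD mice lay inside the range of the other group, and the difference was -0.01 ± 0.13 (SE). Tubb4a, the isotype best known from oligodendrocytes and neurons and from inherited leukodystrophy, measured 11.02, 11.25 and 11.15 against 11.10 and 11.35. Its groups overlapped, with a difference of -0.08 ± 0.13 (SE).

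Of the other beta tubulins, Tubb4b differed by -0.02 ± 0.15 (SE), Tubb5 by -0.21 ± 0.15 and the dim Tubb6 by -0.01 ± 0.11. The 6 measured beta tubulins thus had 5 differences below 0 and 1 above, with a median of -0.02, and 0 passed. The tubulin isotypes are close paralogs, and no source used here says how well each probe tells them apart.

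Alpha tubulins pair with beta tubulins, and gamma tubulin, encoded by Tubg1, nucleates new microtubules. Tuba1a, the main alpha tubulin of neurons, measured 14.75, 14.69 and 14.57 in HD_miR196a mice and 14.58 and 14.80 in HD mice. The HD mice spanned nearly the whole range of the others, and the difference was -0.02 ± 0.12 (SE) with an interval from -0.33 to 0.29. Tuba4a measured 12.66, 12.92 and 12.91 against 12.66 and 12.86 on its brighter probe. In both groups mouse 1 was the lowest, and the group difference of Tuba4a was 0.07 ± 0.13 (SE), or 0.11 ± 0.23 on its dimmer probe. Tuba1c differed by 0.09 ± 0.11, Tubg1 by -0.04 ± 0.11 and Tuba8 by -0.21 ± 0.30, so 2 of the 5 were above 0 and 3 below, and 0 passed.

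Structural MAPs stabilise microtubules along their length. Map2 measured 14.28, 14.27 and 14.33 in HD_miR196a mice and 14.30 and 14.39 in HD mice, a range of 0.12 over all 5 mice. Its groups overlapped, and the difference was -0.05 ± 0.09 (SE). Mapt, whose product tau is the main MAP of axons, measured 12.42, 12.48 and 12.38 against 12.46 and 12.31, with a difference of 0.04 ± 0.10 (SE) that turned to -0.04 with median centring. Map1b, a MAP of growing axons, measured 14.31, 14.14 and 13.98 against 14.10 and 14.14, a difference of 0.02 ± 0.13 (SE). Its HD values lay inside the range of the other group, and a dim second probe differed by -0.01 ± 0.16.

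Map4, the MAP found in most cell types, differed by 0.26 ± 0.19 (SE), the largest of the 6 structural MAPs. Map1a, whose product binds microtubules of mature neurons, differed by -0.04 ± 0.23. Map6, which encodes the cold-stabilising protein STOP, differed by -0.04 ± 0.13 on the brightest of its 4 probes. The other 3 probes of Map6 differed by -0.05 ± 0.18, 0.01 ± 0.09 and -0.24 ± 0.13, so they did not share 1 direction. Of the 6 structural MAPs 3 were above 0 and 3 below, with a median of -0.01, and 0 passed.

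End-binding proteins track the growing plus ends of microtubules. Mapre2 measured 13.42, 13.42 and 13.43 in HD_miR196a mice and 13.33 and 13.31 in HD mice, so the groups did not overlap, though the difference was only 0.10 ± 0.08 (SE, limma adjusted p = 0.979). Without scaling the Mapre2 difference became -0.12, where the median of all probes itself shifted by -0.20. Mapre3, the neuronal member, measured 7.29, 7.54 and 7.48 against 7.35 and 7.67, which overlap at a level within the olfactory receptor range, with a difference of -0.08 ± 0.15 (SE). Mapre1 differed by -0.08 ± 0.10, and 0 of the 3 passed.

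Stathmins bind tubulin dimers and promote the loss of subunits from microtubule ends. Stmn2, a stathmin of growing and regenerating axons, measured 13.43, 13.60 and 13.38 in HD_miR196a mice and 13.47 and 13.32 in HD mice. These values overlap, with a difference of 0.07 ± 0.12 (SE). Stmn3 differed by -0.07 ± 0.10 and Stmn4 by -0.02 ± 0.14, and 0 of the 3 passed. Ttl encodes the ligase that restores the C-terminal tyrosine of alpha tubulin, a change that alters which motors bind the track. It measured 12.27, 12.43 and 12.38 against 12.21 and 12.57, and the 2 HD mice enclosed all the others, with a difference of -0.03 ± 0.14 (SE).

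Doublecortin (Dcx) and Gap43 were the 2 of the 31 genes that lay apart with lower values in HD_miR196a mice. That is 6.45% of the list, below the 10.3% of all probes. Dcx, which binds and stiffens microtubules of migrating neuroblasts, measured 9.71, 9.75 and 9.68 in HD_miR196a mice and 9.96 and 9.83 in HD mice. The means were 9.71 ± 0.04 (SD, n = 3) and 9.89 ± 0.09 (SD, n = 2), a difference of -0.18 ± 0.09 (SE, limma adjusted p = 0.979), or 0.881-fold. A second, dimmer probe of Dcx measured 8.84, 9.10 and 8.93 against 9.16 and 9.26, again with no overlap, and differed by -0.25 ± 0.12. The difference of Dcx was below 0 in all 14 alternative analyses, some of which cannot change it, between -0.42 and -0.12. Both the -0.42 and the smallest limma adjusted p, 0.362, came without scaling, where the median of all probes itself shifted by -0.20.

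Beside Dcx, the 4 markers of subventricular neuroblasts (Sox11, Dlx2, Dlx1 and Cd24a) had a list mean of 8.82, 8.87 and 8.92 in HD_miR196a mice 1 to 3, against 9.01 and 8.92 in HD mice 1 and 2. Of these 4, 3 were lower in HD_miR196a mice and 0 passed. Sox11 was at background in all mice, at 4.41 to 5.32. It was lowest in mouse 1 of each group, at 4.41 and 4.55, which lowers the list mean there. The groups overlapped for Dlx2 and Dlx1 and lay apart only for Cd24a (-0.13 ± 0.10, SE). The part of these markers in the Dcx values was not tested. Gap43, a growth cone protein that remains in adult axon terminals, measured 14.19, 14.40 and 14.39 in HD_miR196a mice and 14.55 and 14.51 in HD mice. Every HD_miR196a mouse was below both HD mice, with means of 14.33 ± 0.12 (SD, n = 3) and 14.53 ± 0.03 (SD, n = 2), a difference of -0.20 ± 0.11 (SE, limma adjusted p = 0.979), or 0.871-fold. The deposited intensities of Gap43, before normalization, were 16460, 20432 and 21433 against 26184 and 24960, on arrays whose medians were also higher in HD mice. Over the 14 alternatives the Gap43 difference lay between -0.40 and -0.11, and without mouse 1 of each group it was -0.11. The -0.40 came without scaling, where the median of all probes itself shifted by -0.20. Crmp1, a CRMP that links semaphorin signals to the cytoskeleton, measured 11.13, 11.22 and 11.10 against 11.05 and 11.28, which overlap, with a difference of -0.02 ± 0.11 (SE).

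Neurofilaments were the only role with several measured members in which every difference was above 0, though 0 of the 3 passed. This role had 4 listed genes, and no probe was named Ina. The doublecortin family and the list of CRMPs with Gap43, each with 2 measured genes, had every difference below 0. Without scaling Nefl and Nefh were below 0, at -0.15 and -0.06, where the median of all probes itself shifted by -0.20. Nefh was also at -0.06 without HD mouse 2. Nefl was at -0.05 without HD_miR196a mouse 3. The replicate block (the mouse number as a term in the fit) gave the same estimate, because number 3 occurs in 1 group only. The light chain Nefl, which forms the core of the filament, measured 12.84, 12.70 and 13.20 in HD_miR196a mice and 12.81 and 12.84 in HD mice. HD_miR196a mouse 3 alone was high, and the difference was 0.09 ± 0.17 (SE). The medium chain Nefm measured 14.27, 13.81 and 14.17 against 13.91 and 13.66. HD_miR196a mouse 2 fell between the HD mice, and the difference was 0.30 ± 0.18 (SE, limma adjusted p = 0.979), or 1.23-fold, with an interval from -0.17 to 0.77. The heavy chain Nefh, whose long tail spaces the filaments apart, measured 11.99, 11.39 and 11.70 against 11.76 and 11.27, with a difference of 0.18 ± 0.25 (SE) and groups that overlapped. The Nefm difference stayed above 0 in all 14 alternatives, some of which cannot change it, between 0.09 and 0.44, and was 0.18 without HD mouse 2.

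**Figure D2:**
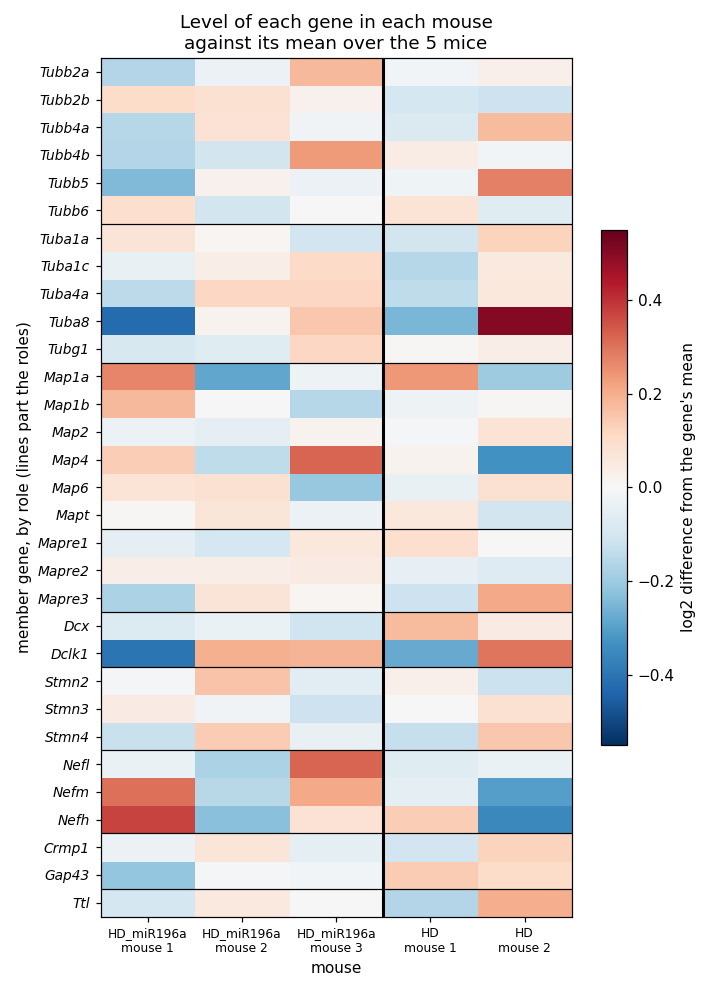
Level of each of the 31 genes (rows, ordered by role) in each mouse (columns), as the log2 difference from the gene's mean over the 5 mice, red for higher and blue for lower. Dclk1 and Tuba8 are blue in mouse 1 of both groups, while Nefh and Map1a are red there and blue in mouse 2 of both groups.

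For most of these genes, as for most genes on the array, the mice of 1 group differed by more than the groups did. The measures are unlike, since a gap or range of single mice varies more than a difference of group means. A majority is therefore expected even where the groups do not differ. The gap between the 2 HD mice was larger than the group difference for 24 of 31 genes, 77.4%, against 63.9% of all genes, and either that gap or the range of the HD_miR196a mice was larger for 28 of 31, 90.3%, close to the 89.2% of all genes. The median gap between the HD mice was 0.16 and the median size of a group difference 0.07. The clearest such gene was Dclk1, a doublecortin-like kinase of cortical and hippocampal neurons. It measured 11.91, 12.51 and 12.50 in HD_miR196a mice 1 to 3, against 12.03 and 12.61 in HD mice 1 and 2, so that mouse 1 was about equally low in each group. The difference between the groups was -0.01 ± 0.28 (SE), with an interval from -0.74 to 0.71, and 2 dimmer probes of Dclk1 differed by 0.05 ± 0.33 and 0.16 ± 0.18.

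Mouse 1 was the lowest of its group in both groups for 11 of the 31 genes, 35.5%, against 21.8% of all genes and 24.5% of those above the olfactory receptor mark. These were Tubb2a, Tubb4a, Tubb5, Tuba1c, Tuba4a, Tuba8, Tubg1, Mapre3, Dclk1, Stmn4 and Ttl, 7 of them tubulins. Tuba8, singled out after its values were seen, measured 6.63, 7.07 and 7.20 in HD_miR196a mice and 6.80 and 7.56 in HD mice. Tubb5, likewise singled out, measured 8.80, 9.07 and 9.01 against 9.02 and 9.32. The cortical neuron markers given above were lowest in the same 2 mice, and their part in these values was not tested.

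The reverse pattern, mouse 1 highest in both groups, was seen for 5 of the 31, 16.1%, against 25.4% of all genes: Tubb2b, Tubb6, Map1a, Nefm and Nefh. For Nefh the gap from mouse 2 to mouse 1 was -0.49 in HD mice, and the mean of mice 2 and 3 was below mouse 1 by a similar amount in HD_miR196a mice, at -0.45. Oligodendrocyte markers (Mbp, Mobp, Mog, Mag, Cnp, Mal and Cldn11) also had their highest list mean in mouse 1 of each group, at 12.84, 12.58 and 12.28 in HD_miR196a mice 1 to 3, against 12.49 and 12.08 in HD mice 1 and 2. All 7 measured higher on average in HD_miR196a mice, 0 passed, and their part in the neurofilament values was not tested.

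**Figure D3:**
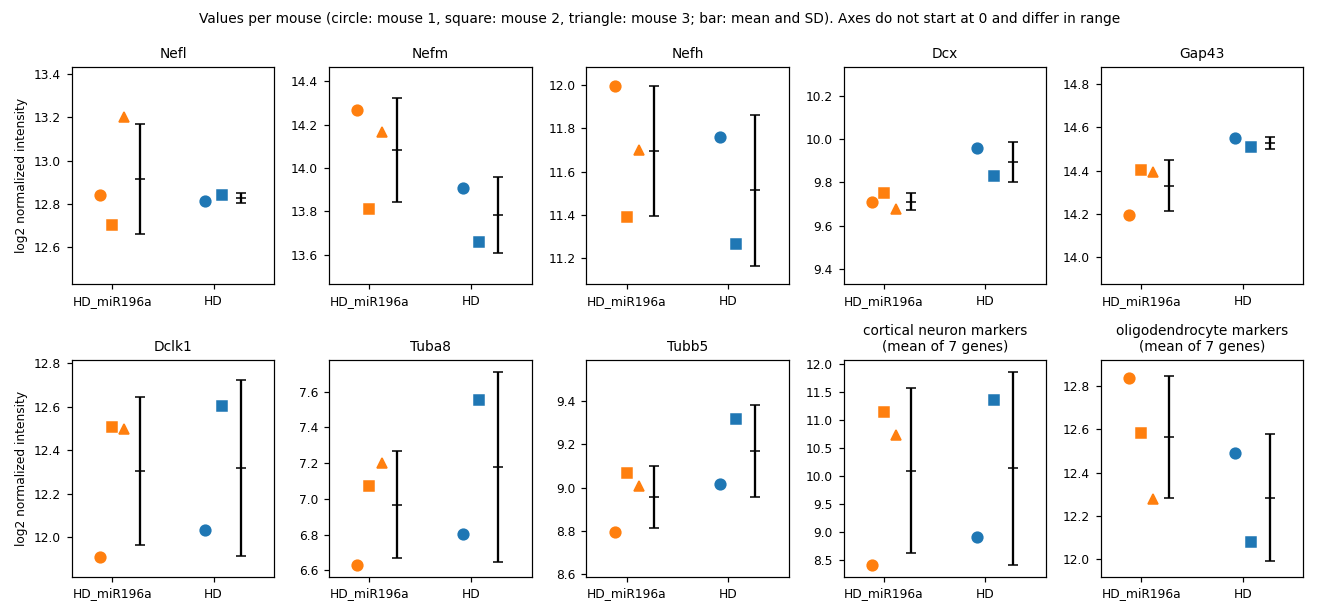
Log2 normalized intensity (vertical axes, which differ in range and do not start at 0) of 8 genes and of the mean of 7 cortical neuron and 7 oligodendrocyte markers in each mouse, in orange for HD_miR196a and blue for HD, with the group mean and SD as bars. Dcx and Gap43 are the panels without overlap, and Dclk1, Tuba8 and Tubb5 are lowest in mouse 1 (circles) of each group, as the cortical markers are.

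**Figure D4:**
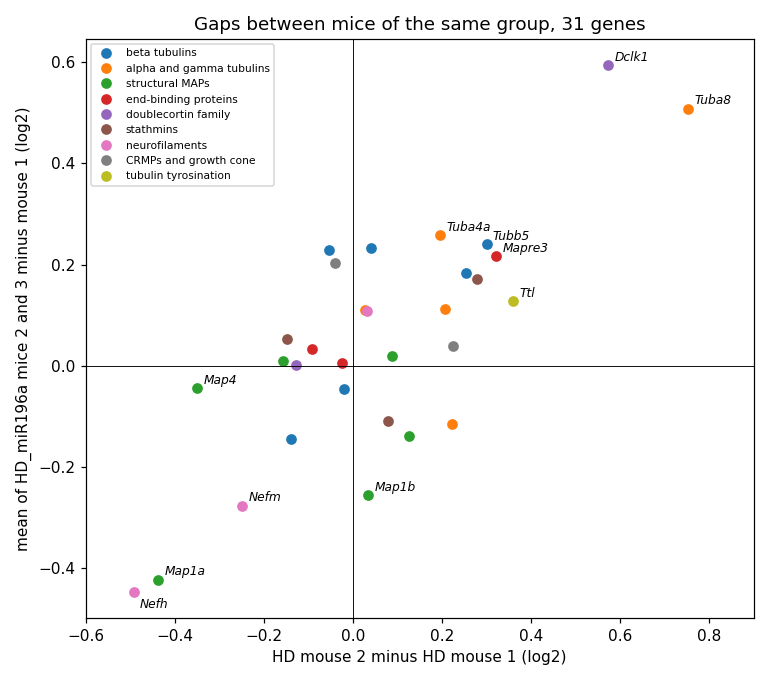
HD mouse 2 minus HD mouse 1 (horizontal axis, log2) against the mean of HD_miR196a mice 2 and 3 minus mouse 1 (vertical axis, log2) for the 31 genes, coloured by role. Dclk1 (0.57 and 0.59) and Tuba8 (0.75 and 0.51) lie at the upper right, and Nefh (-0.49 and -0.45) and Map1a (-0.44 and -0.42) at the lower left.

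Other microtubule and filament genes were read from a list of 68, of which 61 had a named probe, 18 of them with a mean below the olfactory receptor mark. It held tubulin folding and nucleation factors, severing enzymes, plus-end and minus-end proteins, tubulin-modifying enzymes and further intermediate filaments. Of the 61, 31 measured higher and 30 lower in HD_miR196a mice, 0 passed in either direction by limma (smallest adjusted p = 0.979). Values of the groups lay apart for 9, 14.8%, against 20.3% of all probes. A single gene of the 61, Vim, had an unadjusted limma p under 0.05 (limma adjusted p = 0.979). That is 1.64% of the list, below the 4.16% of all probes. Vimentin, the intermediate filament of glial and endothelial cells, measured 12.19, 12.21 and 11.83 in HD_miR196a mice and 12.57 and 12.46 in HD mice, a difference of -0.44 ± 0.16 (SE). Every HD_miR196a mouse was below both HD mice, while the neurofilament genes overlapped, and whether vimentin and neurofilaments differ in this was not tested.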

How the data were processed

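Per the labels, total RNA was amplified, labelled with Cy5 and read on a single-colour oligonucleotide array, with 2 technical repeats a mouse that the authors merged, which leaves 1 value per mouse as the replicate. The deposited intensities, 1 per probe and mouse for 26423 probes, are linear and reach slightly below 0; scanner, software, scaling and build are not stated in any source used here. They were quantile normalized, floored at 1 and put on the log2 scale, and fitted with limma 3.58.1 in R 4.3.3 (lmFit, eBayes; 3 residual degrees of freedom; two-sided, Benjamini-Hochberg over all probes). An exact permutation test of 3 against 2 mice could not go below p = 0.1. The fit was tested on simulated data. Probe symbols came from the platform table: 20377 probes had 1 symbol, 18213 matched RefSeq names (GRCm38.p6) directly and 2126 through a synonym.

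Groups came from the sample titles. Genes and lists were chosen with earlier results of these data known. Values of every mouse are given for 17 measured genes fixed by name, for genes with groups apart or an unadjusted p under 0.05, and for others where stated; related genes are named at an unadjusted p under 0.05 and above the olfactory receptor mark. Alternatives changed scaling, floor, dim-probe filter, eBayes settings, replicate block, probe summary and mice. The number of arrays limits the precision.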

Additional observations from a re-analysis of the deposited data

How the results depend on the processing

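Among the 14 alternatives, none of the 31 genes and none of the 61 related genes passed, where tested, in any that kept both HD mice. The 13211 brightest probes covered 29 of the 31 and 49 of the 61. The 19817 brightest covered all 31 and 58 of the 61. At an unadjusted p under 0.05, limma gave 3 of the 31 with a floor at the median of olfactory receptor probes and 2 without scaling. It gave 1 without HD_miR196a mouse 2 and 0 in the others that kept both HD mice. Of all 26423 probes the same fits gave 1511 with that floor, 3641 without scaling and 842 without HD_miR196a mouse 2. Over the array, 2 probes passed with the higher floor, 1 among the 19817 brightest probes, 3 with trend and robust eBayes and 0 to 3 with 1 mouse left out. Without scaling the median difference of the 31 genes was -0.216 and 16 did not overlap, all lower, where 39.8% of all probes were apart. With 1 mouse left out that median lay between -0.0311, without HD mouse 1, and 0.0366, without HD mouse 2, and it was 0.00 without HD_miR196a mouse 1. Without mouse 1 of each group, an alternative chosen after seeing the data that leaves 1 HD mouse, 23 of the 31 did not overlap, against 66.5% of all probes. In such fits the spread of the single HD mouse is taken from the other group. Of 266 values of named genes under the alternatives, 229 kept their sign and 37 changed it, none of them past the threshold in either fit. The kept signs overstate stability, since some alternatives could not move a difference. The dim-probe filters and eBayes settings leave it unchanged, and so did the higher floor for every named gene. The probe mean is unchanged for a gene with 1 probe. This limit also holds for the signs of Dcx, Gap43 and Nefm over the 14 alternatives.

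The mouse number was tried as a replicate block, which gave a median of -0.0299 and 0 genes past the threshold. Its differences are those without HD_miR196a mouse 3, whose number has no partner in the other group, so these alternatives are not separate estimates. Only 2 numbers are shared, and the labels do not say that they pair mice. Across probes, which are not independent, deviations of equal-numbered mice from their group mean correlated at 0.236 and 0.170. The 2 correlations are not separate, since the deviations of the 2 HD mice from their mean mirror each other. Low signal limits Tubb6, Tuba8, Map1a and Mapre3.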

Other observations

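Among the related genes, the 9 whose groups did not overlap were looked at after their values were seen. In HD_miR196a mice 4 were lower: Vim, the astrocyte filament Gfap (-0.57 ± 0.25, SE), the plus-end protein gene Clip2 (-0.25 ± 0.11) and Spast. Spastin, a microtubule-severing enzyme mutated in hereditary spastic paraplegia, measured 11.25, 11.13 and 11.15 in HD_miR196a mice and 11.34 and 11.55 in HD mice. The 5 higher were Tubd1, Clasp1, Dclk3, Map7 and Nes, between 0.10 ± 0.11 and 0.18 ± 0.13. Of these 9, Clip2, Tubd1 and Nes had means below the olfactory receptor mark of 8.31. Dclk3, a doublecortin-like kinase enriched in striatum, measured 11.38, 11.67 and 11.41 against 11.29 and 11.33. None of the 9 passed the limma test over all probes (smallest adjusted p = 0.979).

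Of the 6 cytoskeletal genes with several probes, Dcx and Tuba4a had all their probes on 1 side of 0, and Crmp1, Dclk1, Map1b and Map6 did not.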
